A study of Homo sapiens with 14 samples.

Results

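SVA elements are the composite retrotransposons SVA_A to SVA_F, and their RNA was followed here through differentiation of human embryonic stem cells. Members were all annotated integrants (single copies in the genome) whose name holds one of these 6 types, which gave 5565 of 4570939 integrants of transposable elements (TEs) on GRCh37 (hg19). SVA_D was the most numerous type with 1433 integrants, followed by SVA_A with 1186, SVA_F with 973, SVA_B with 801, SVA_E with 686 and SVA_C with 486. Of all members, 272 overlapped an annotated exon, 3011 lay in an intron and 2282 lay between genes.

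The study read polyadenylated RNA in bulk from H9 cells, an established human embryonic stem cell (hESC) line, and its derivatives, in 12 libraries. Undifferentiated hESC (2 libraries) were grown in mTSER Plus on Matrigel. Control endoderm (DE_ctl, 3 libraries) carried dCAS9-KRAB, a catalytically dead Cas9 fused to a repressor domain, without an sgRNA, and CRISPRi endoderm (DE_CRISPRi, 3 libraries) carried it with an sgRNA against LTR5. Both had received 100 ng/ml Activin A for 3 days, with CHIR-99021, an inhibitor of GSK-3, at 5 μM on the first day and 0.5 μM on the second. Control foregut (FG_ctl) and CRISPRi foregut (FG_CRISPRi), with 2 libraries each, had passed through 3 days of endoderm and 3 days of foregut culture. The hESC labels name no dCAS9-KRAB, so its presence and differentiation cannot be told apart between hESC and endoderm. Foregut groups follow the sample titles, because other tags of these 4 libraries read hESC or endoderm without sgRNA. The study's methods describe its RNA-seq replicates as biologically independent, and the sample labels do not say whether they were separate cultures.

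As background, an SVA joins a 5′ run of CCCTCT hexamers, an Alu-like stretch, a variable number of tandem repeats (VNTR) and a SINE-R, which derives from the 3′ end of a HERV-K provirus with its LTR5, before a poly-A tail. SVAs are restricted to hominoids and are copied by the LINE-1 machinery. SVA_A is the oldest type, while SVA_E and SVA_F are restricted to humans. In pluripotent cells they are bound by KRAB zinc finger proteins (KZFPs) such as ZNF91 and ZNF611, which recruit TRIM28 and SETDB1, and their CpG-rich bodies are DNA-methylated.

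The 5′ end of 1 integrant that recurs below is shown so that the hexamer run of a transcribed copy can be seen. It was read from GRCh37 on the strand of the element. The window starts 40 bases before the annotated start and holds 120 bases, with CCCTCT in capitals.
SVA_B near CENATAC, 5′ window, chr11:118863189-118863308, minus strand: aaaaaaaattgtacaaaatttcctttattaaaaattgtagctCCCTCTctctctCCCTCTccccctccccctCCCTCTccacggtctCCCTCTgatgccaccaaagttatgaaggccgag

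The SVA_B near CENATAC had 4 hexamers in this window. The same window was searched in the other members, and the last 70 annotated bases were searched for AATAAA, the polyadenylation signal. Both motifs were searched on the strand of the element only. Orientation was read from 12-base words shared by integrants with several CCCTCT near an end, so the CCCTCT shares depend partly on that motif. The 1659 members whose orientation could not be read, 626 of them SVA_A, were left out. Among the 3906 members whose orientation could be read, 54.6% held CCCTCT in the 5′ window, from 32.5% of SVA_A to 74.1% of SVA_D. AATAAA stood in the 3′ window of 49.5%, and of SVA_B in 72.5%.

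A minority of members had any read. Over the 12 libraries, 1074 of 5565 (19.3%) held at least 1 read, with 33.0% of SVA_D, 20.2% of SVA_C, 17.2% of SVA_F, 14.9% of SVA_E, 14.6% of SVA_B and 9.87% of SVA_A. Pooled over the types, members with reads had a median length of 1495.5 bases and members without had 141. Of the 2261 integrants over 1 kb, 34.9% had a read, compared with 8.60% of shorter ones. Among those over 1 kb the types lay between 25.5% (SVA_B) and 44.4% (SVA_E). Reads were counted only where they mapped to 1 place, so young copies that differ little from each other may be undercounted.

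Intronic members were mostly opposite to their gene. Of introns where both directions could be read, 646 SVAs lay in the direction of the gene (sense) and 1466 against it, a sense share of 30.6%. Among integrants with at least 3 reads in 1 library, 115 were sense and 99 antisense, a share of 53.7%. By type this was 14 of 20 for SVA_A, and the share was 44.4% for SVA_B, 45.8% for SVA_C, 53.4% for SVA_D, 56.0% for SVA_E and 53.8% for SVA_F. In each library sense copies held between 59.0% and 72.6% of the reads in these introns. Whether the counting used strand is not given in the sources used here, so SVA transcripts and intronic reads of the host gene cannot be told apart.

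**Figure D1:**
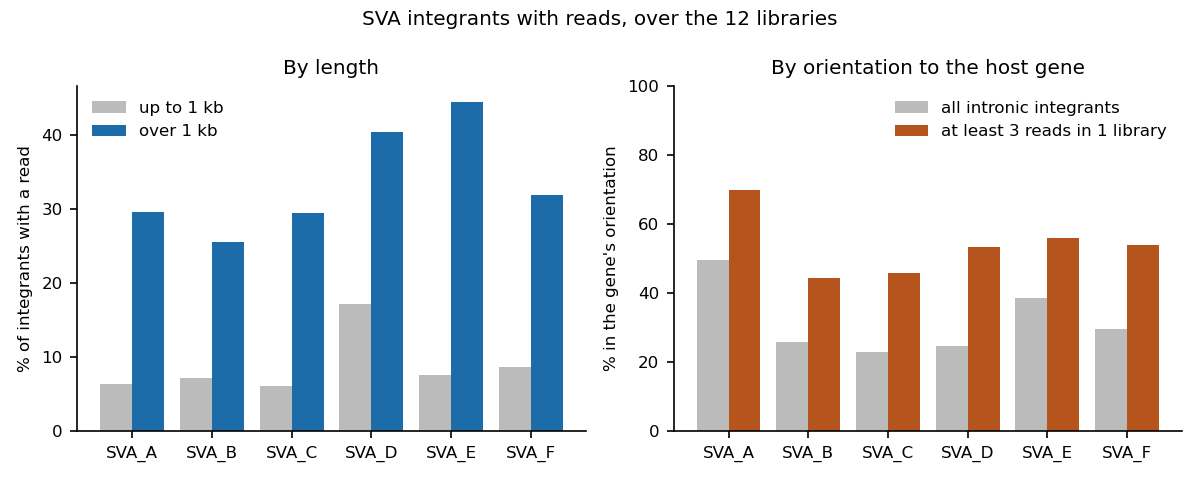
Left, the percent of SVA integrants of each type with at least 1 read over the 12 libraries, for integrants up to 1 kb (grey) and over 1 kb (blue). Right, the percent of intronic integrants in the direction of the host gene, among all (grey) and among those with at least 3 reads in 1 library (orange); 44.4% of SVA_E over 1 kb had a read, and the sense share was higher among integrants with reads in every type.

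Depth set what could be seen. Gene reads ranged from 11583063 to 37152434 a library, and SVA reads from 568 to 5614. A single read equals 0.0269 to 0.0863 reads per 1000000 gene reads (RPM), the unit of all levels below. Mitochondrial genes held 8.30% to 14.4% of gene reads in endoderm, 25.5% and 16.9% in hESC, and 17.6% to 34.7% in foregut. Endoderm markers fitted the labels, with all 7 (among them SOX17, GATA4 and GATA6) higher in control endoderm than in hESC. The 4 mesoderm markers (TBXT, TBX6, MESP1 and HAND1) were higher there too, at a summed 45.2 to 68.6 RPM against 0.931 to 1.19 in hESC. Of 6 pluripotency markers 0 were called higher and 3 lower in control endoderm (SOX2, DPPA4 and PRDM14). POU5F1 had a log2 difference of 0.79 (edgeR adjusted p = 0.017), short of a fold change of 2. NANOG (-0.48) and LIN28A (-0.06) were not called. The part of mesoderm markers in the endoderm results was not tested. In control foregut, 3 of 6 tested foregut markers (PDX1, FOXA1 and SOX9) were higher than in control endoderm, and of 6 pluripotency markers 4 were lower (POU5F1, NANOG, DPPA4 and PRDM14), SOX2 was higher (log2 fold change 2.84) and LIN28A was not called (0.07). The trophoblast markers GATA3, CDX2 and CGA were higher there too. Their summed level was 33.4 to 51.3 RPM in control foregut and 3.31 to 7.08 in control endoderm. Of 7 endoderm markers, 5 were lower in control foregut (SOX17, GATA6, CER1, EOMES and CXCR4), FOXA2 was higher and GATA4 was not called. All 4 mesoderm markers were lower in control foregut, at a summed 3.12 to 3.52 RPM. The part of these markers in the foregut results was not tested.

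The foregut libraries stood apart. Among SVA integrants outside exons with at least 20 reads in 1 library, 22.2% to 46.0% had none at all in the replicate of the same foregut group, which is 8 to 23 integrants. In hESC and endoderm this was 0 in all 14 ordered pairs of replicates. For all TE integrants outside exons it was 43.4% to 70.04% in foregut and at most 0.774% elsewhere, and for genes 2.93% to 9.44% and at most 0.0809%. The cause was not tested, and every foregut value below carries this spread between replicates.

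**Figure D2:**
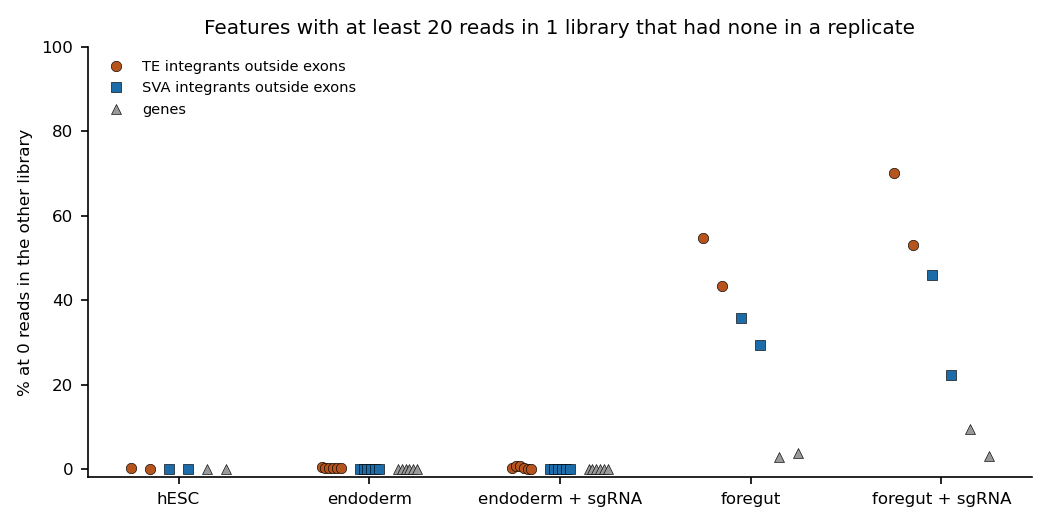
Percent of features with at least 20 reads in 1 library that had 0 reads in another library of the same group (y axis), by group (x axis), for TE integrants outside exons (circles), SVA integrants outside exons (squares) and genes (triangles). Each point is 1 ordered pair of replicates; SVA values reach 46.0% in foregut and are 0 in hESC and endoderm.

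Outside exons, the level of all SVAs together was 29.2 and 33.5 RPM in hESC and 37.1, 34.0 and 35.1 in control endoderm. It was 38.1, 35.5 and 34.6 in CRISPRi endoderm, 94.1 and 81.8 in control foregut, and 137.3 and 97.9 in CRISPRi foregut. All 4 foregut libraries thus lay above all 8 others. The foregut libraries had 183, 200, 223 and 89 SVA integrants with a read, and those of hESC and endoderm had 168 to 216, so the ranges overlapped. SVA overlapping exons were at 12.2 to 18.1 RPM in hESC and endoderm and 29.2 to 39.0 in foregut. SVA made up 0.268% to 0.417% of TE reads in hESC and endoderm and 0.680% to 0.875% in foregut. In bulk RNA, fewer cells of a type and less RNA per cell cannot be told apart.

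**Figure D3:**
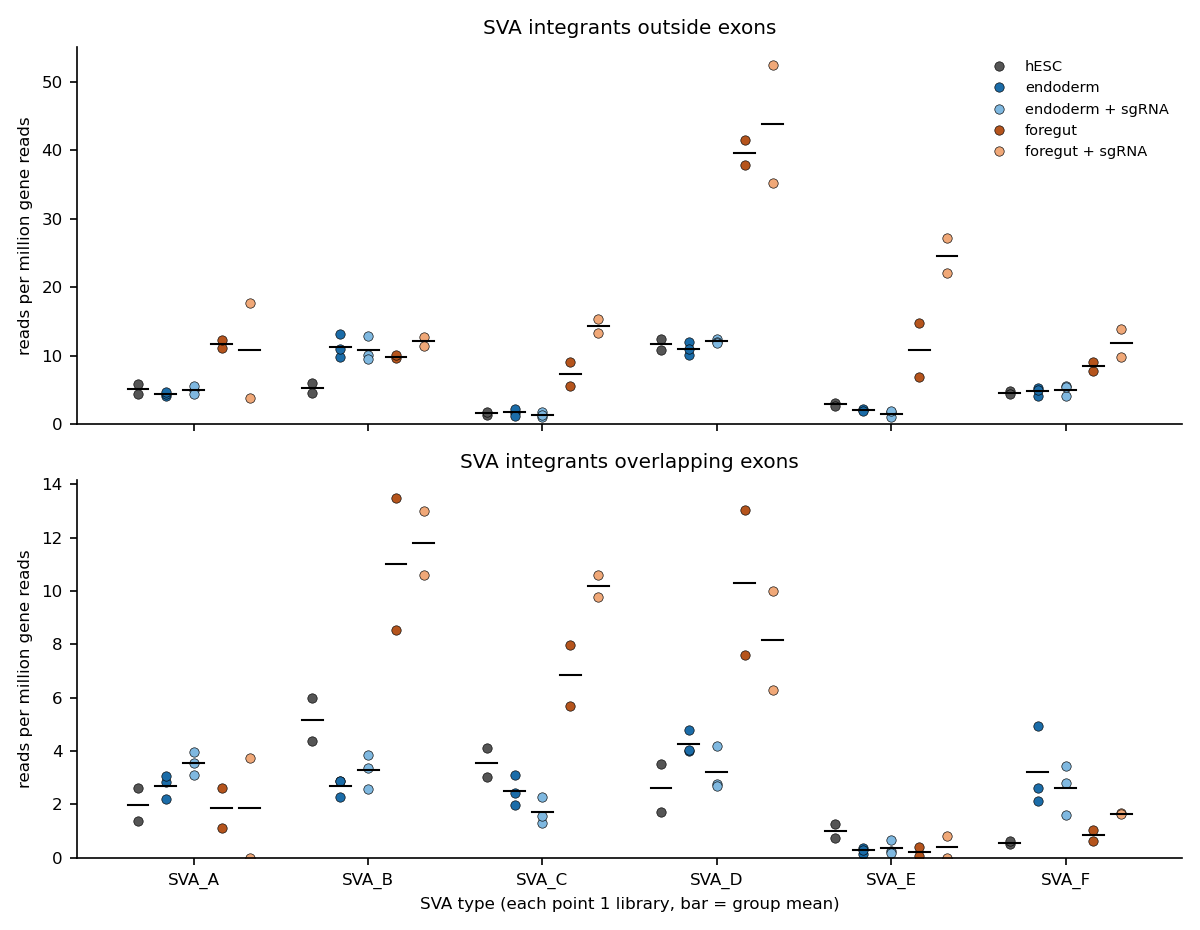
RPM, reads scaled to gene reads (y axis) of each SVA type (x axis) for integrants outside exons (top) and overlapping exons (bottom). Points are single libraries coloured by group and bars are group means; SVA_D outside exons lies between 10.1 and 12.5 in hESC and endoderm and between 35.2 and 52.5 in foregut.

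Few integrants carried most of each type. SVA_A near MSANTD3 (chr9:103154467-103156164, between genes, 33261 bases from the start site) alone gave 42.5% to 48.9% of the SVA_A reads outside exons in every group. It had 42 and 59 reads in hESC, 35, 53 and 37 in control endoderm, 39, 42 and 26 in CRISPRi endoderm, 99 and 260 in control foregut and 240 and 44 in CRISPRi foregut. No other type rested on the same integrant in all groups. SVA_D was spread most widely, with 7 to 16 integrants needed for 50% of its reads, against 2 for SVA_A in every group.

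The first comparison asked how SVA RNA changed from hESC to endoderm. Outside exons SVA_B was the one type called, while SVA_A, SVA_C, SVA_D, SVA_E and SVA_F were not. SVA_B was at 4.63 and 5.98 RPM in hESC and 13.2, 9.84 and 10.9 in control endoderm, with no overlap between groups. Its log2 fold change was 1.17 (SE 0.33, adjusted p = 0.00684), where 15.7% of the 1042 TE subfamilies tested were called. The call was lost without hESC 1 (1.05, adjusted p = 0.10) and without DE_ctl 3 (1.16, adjusted p = 0.064), and with all 12 libraries in one fit (1.14, adjusted p = 0.095). SVA_D, the most abundant type in hESC, was at 10.8 and 12.5 RPM in hESC and 12.0, 10.1 and 10.99 in control endoderm, a log2 difference of -0.01 (SE 0.31). The log2 differences of SVA_A, SVA_C, SVA_E and SVA_F were -0.14, 0.19, -0.43 and 0.13. The median over all subfamilies was -0.29, and 84 were called higher and 80 lower. Scaled to TE reads, 117 were higher and 68 lower. Of all subfamilies, 85 were called without hESC 1 (63 higher, 22 lower, median -0.02), 101 without DE_ctl 3 and 34 with all 12 libraries in one fit, against 164.

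The SVA_B call turned on 1 integrant near ZNF730, a KRAB zinc finger gene of chromosome 19 (chr19:23343033-23344614, minus strand, between genes, 85021 bases from the ZNF730 start site). It had 0 and 0 reads in hESC, 152, 103 and 122 in control endoderm and 122, 90 and 49 in CRISPRi endoderm, and 0 in all 4 foregut libraries. It was read in all 6 endoderm libraries and in none of the other 6. Control endoderm was at least 101-fold higher than hESC and at least 152-fold higher than control foregut, with 3 reads over the group as the floor for a count of 0 (adjusted p = 1.1e-23 and 1.5e-18). The floor covers counting error only. Well-read integrants often had 0 reads in a foregut replicate, so the fold against foregut is not a firm bound. This copy made up 58.8% of SVA_B reads outside exons in control endoderm. Without it, an alternative chosen after seeing the data, SVA_B was at 4.66 ± 1.04 RPM (SD, n = 3) in control endoderm and 5.31 ± 0.96 (SD, n = 2) in hESC, a log2 ratio of -0.19 with no test.

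The same pattern held for the annotated pieces of Harlequin-int, an endogenous retrovirus of the HERV-E group, on both sides of this SVA_B. The piece at chr19:23337334-23339590 had 0 and 0 reads in hESC, 81, 89 and 81 in control endoderm, 75, 82 and 32 in CRISPRi endoderm and 0 in foregut. The adjoining piece at chr19:23339902-23343032 had 0 and 0, then 109, 69 and 60, then 51, 84 and 43, and 0 in foregut. The piece on the other side, chr19:23344662-23347078, had 0 and 0, then 32, 17 and 9, then 37, 12 and 8, and 0 in foregut. An LTR6B and HERVS71-int integrant farther on (chr19:23362546-23369633), which overlaps an annotated exon, had 0 and 0 reads in hESC, 45, 42 and 37 in control endoderm, 66, 28 and 24 in CRISPRi endoderm and 0 in foregut. All 3 Harlequin-int pieces were called higher in control endoderm than in hESC and lower in control foregut than in control endoderm.

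**Figure D4:**
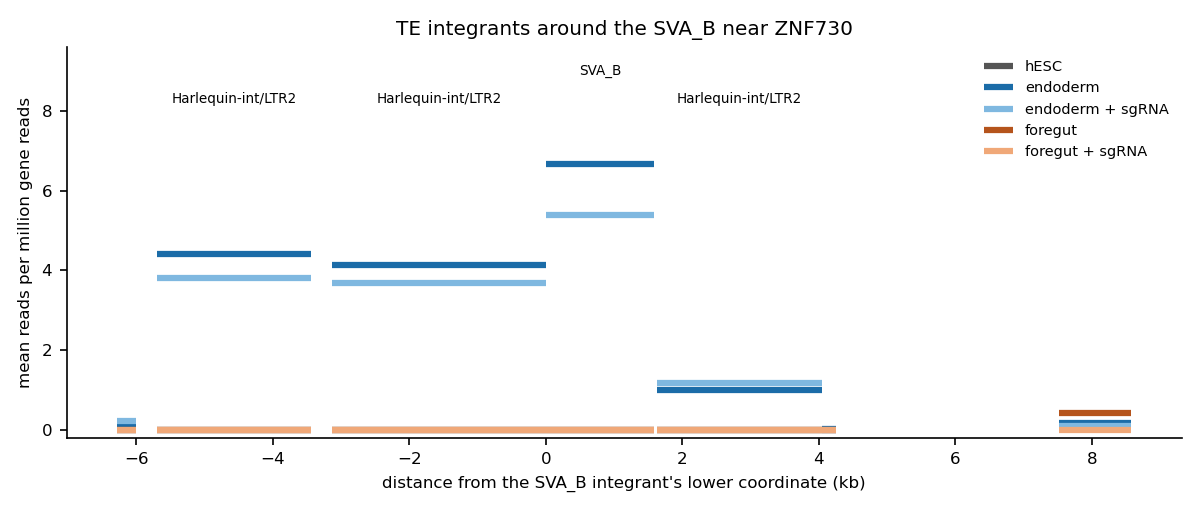
Mean RPM (y axis) of TE integrants around the SVA_B near ZNF730 against the distance from its lower coordinate in kb (x axis), 1 colour a group. Each bar spans an integrant; the SVA_B and the 3 Harlequin-int pieces are read in both endoderm groups and lie at 0 in hESC and foregut.

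Single integrants moved both ways between hESC and endoderm. Of 137 SVA integrants tested outside exons, 3 were called higher (2.19%) and 5 lower (3.65%), where 2.61% and 1.17% of all 31441 integrants were called. Besides the SVA_B near ZNF730, the higher ones were a pair of SVA_D copies. SVA_D in an intron of FUT8, a fucosyltransferase gene (chr14:66099700-66101298, sense), had 4 and 4 reads in hESC and 18, 14 and 21 in control endoderm (log2 fold change 2.48, SE 0.77, adjusted p = 0.039). The FUT8 gene itself was 1.38 higher on the log2 scale. SVA_D in an intron of RFTN2 (chr2:198482776-198484482, antisense) had 0 and 2 reads in hESC and 57, 7 and 8 in control endoderm, so that 1 library held most of them (log2 fold change 4.72, SE 0.91, adjusted p = 1.8e-05).

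The 5 lower integrants had 0 to 16 reads in each control endoderm library. SVA_B near CENATAC, a spliceosome gene (chr11:118861703-118863268, between genes, 5580 bases from the start site), had 56 and 64 reads in hESC and 4, 16 and 4 in control endoderm (log2 fold change -2.60, SE 0.57, adjusted p = 0.0003). It was at 2.38 and 2.84 RPM in hESC, 0.203, 0.743 and 0.244 in control endoderm, 1.07 and 1.16 in control foregut and 3.45 and 1.44 in CRISPRi foregut. The difference between control foregut and control endoderm was not called (log2 1.48, SE 1.01, adjusted p = 0.47). SVA_D near COL26A1, a collagen gene (chr7:101001276-101003732, between genes), had 54 and 58 reads in hESC, 5, 14 and 6 in control endoderm and 0 in foregut (log2 fold change -2.42, SE 0.57, adjusted p = 0.0012). SVA_D in ANKRD18B (chr9:33600249-33601835) had 11 and 40 reads in hESC and 0, 1 and 3 in control endoderm, and that gene was also lower, by a log2 fold change of -1.87. SVA_F in PDK1-AS1 (chr2:173401888-173403783, antisense) had 15 and 26 reads in hESC and 1, 0 and 0 in control endoderm, while that gene was 3.07 higher. SVA_F at chr6:123168926-123171462 had 12 and 3 reads in hESC and none in control endoderm, at least 6.25-fold lower. Across the 52 sense intronic SVAs tested, the log2 fold changes of SVA and host gene had a Spearman rho of 0.48, and across the 15 antisense ones -0.06. These points share libraries, and the values describe integrants, not replicates.

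Copies that overlap exons moved differently. SVA_F rose and SVA_B and SVA_E fell, where 22% of 758 subfamilies were called. SVA_F was at 0.51 and 0.62 RPM in hESC and 2.14, 4.92 and 2.63 in control endoderm (log2 fold change 2.58, SE 0.41). Most of this was 1 integrant in an exon of the long non-coding RNA PPP1R3B-DT on chromosome 8, with 1 and 5 reads in hESC, 33, 89 and 36 in control endoderm and 0 and 0 in control foregut. SVA_B was at 4.38 and 5.98 RPM in hESC and 2.29, 2.88 and 2.87 in control endoderm (log2 fold change -0.87, SE 0.30, adjusted p = 0.0269), opposite in sign to SVA_B outside exons. SVA_E was low in all groups, at 1.27 and 0.75 RPM in hESC and 0.15, 0.37 and 0.31 in control endoderm (log2 fold change -1.80, SE 0.56, adjusted p = 0.0142).

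The second comparison asked whether the sgRNA against LTR5 changed SVA RNA, since the SINE-R of SVAs derives from HERV-K sequence. The sgRNA had no site in SVAs. Of 5420 SVA integrants on primary chromosomes, 0 held the 20-base target followed by NGG with up to 4 mismatches, and the closest had 6. LTR5_Hs held a perfect site in 129 of 585 integrants and LTR5B in 108 of 418. With up to 1 mismatch these were 455 and 164, and with up to 4 they were 510 and 200. The targeted LTR5_Hs outside exons was at 10.5 ± 0.79 RPM (SD, n = 3) in control endoderm and 7.89 ± 1.69 (SD, n = 3) in CRISPRi endoderm (log2 fold change -0.39, SE 0.33, adjusted p = 0.82), which was not called. Its copies overlapping exons differed by -0.81 (SE 0.21, adjusted p = 0.18). LTR5B differed by -0.18 outside exons (SE 0.40, adjusted p = 0.91). Its copies overlapping exons were at 0.832 ± 0.439 RPM (SD, n = 3) with the sgRNA and 3.34 ± 0.308 (SD, n = 3) without (log2 difference -1.95, SE 0.35, adjusted p = 0.061), the lowest p of 736 subfamilies but not called.

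In endoderm none of the 6 SVA types was called with the sgRNA, outside exons or overlapping them, where 0.0985% and 0% of subfamilies were called by edgeR. SVA_D was at 12.4, 12.0 and 11.9 RPM with the sgRNA and 12.0, 10.1 and 10.99 without. SVA_B was at 12.8, 10.1 and 9.58 with it and 13.2, 9.84 and 10.9 without. The log2 differences outside exons ran from -0.39 (SVA_E, SE 0.41) to 0.21 (SVA_A, SE 0.35), with a median over all subfamilies of 0.30. Of 133 SVA integrants tested, edgeR called 0 higher and 0 lower, with 5 at an unadjusted p under 0.05 and 0 calls by DESeq2 or limma voom. Over all 23581 integrants 0.00848% were called higher and 0.017% lower. The SVA_B near ZNF730 was read in all 3 libraries with the sgRNA, as given above. The summed level of the 4 mesoderm markers was 82.6 to 107.0 RPM with the sgRNA and 45.2 to 68.6 without, with none of the 4 called, and its part in SVA levels was not tested.

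In foregut the sgRNA groups differed in cell markers. PDX1 was at 25.5 and 25.9 RPM without the sgRNA and 2.42 and 8.50 with it (adjusted p = 0.0022), and CDX2 at 23.1 and 12.9 without and 1.44 and 4.13 with it (adjusted p = 0.00099). Their part in SVA levels was not tested. None of the 6 SVA types was called in foregut, where 0% of subfamilies outside exons and 0.732% of those overlapping exons were called. The median log2 difference over all subfamilies outside exons was 0.33. It turned to -0.22 without FG_CRISPRi 1, which leaves 1 library in that group, and was 0.76 without FG_ctl 1. SVA_E showed the widest difference, at 14.8 and 6.89 RPM without the sgRNA and 27.2 and 22.01 with it (log2 difference 1.20, SE 0.53, unadjusted p = 0.023, adjusted p = 0.99). SVA_C was at 9.16 and 5.57 without and 13.3 and 15.4 with it (log2 difference 0.96, SE 0.57). SVA_A was at 11.2 and 12.3 without it and 17.7 and 3.89 with it, so the CRISPRi replicates differed more than the groups. Of 246 SVA integrants tested, edgeR called 0, with 0 at an unadjusted p under 0.05, and DESeq2 called 0. Over all 50453 integrants edgeR called 0.00396% higher and 0.00198% lower, and DESeq2 0. limma voom called 1 SVA integrant higher and 1 lower, where it called 0.565% and 0.210% of all integrants. The difference of the sgRNA effect between foregut and endoderm was tested as an interaction, and none of the 6 types was called (0.188% of subfamilies were). Its largest value was SVA_E at 1.56 (SE 0.65, adjusted p = 0.44). With FG_CRISPRi 1 left out of this interaction, SVA_A was called at -1.93 (adjusted p = 0.045, edgeR's quasi-likelihood test). The CRISPRi foregut group was then 1 library, assumed to vary like the other groups, and 10.9% of all 1056 subfamilies were called lower and 1.61% higher.

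The third comparison set control foregut beside control endoderm. SVA_A, SVA_C, SVA_D and SVA_E were higher in foregut outside exons, and SVA_B and SVA_F were not called, where 28.8% of 1030 subfamilies were called. SVA_D was at 41.5 and 37.8 RPM in control foregut and 12.0, 10.1 and 10.99 in control endoderm (log2 fold change 1.86, SE 0.30, adjusted p = 0.0013). SVA_E was at 14.8 and 6.89 in control foregut and 2.03, 2.23 and 2.02 in control endoderm (log2 fold change 2.41, SE 0.42, adjusted p = 0.0021). SVA_C was at 9.16 and 5.57 and at 1.73, 2.18 and 1.28 (log2 fold change 2.11, SE 0.42, adjusted p = 0.0041). SVA_A was at 11.2 and 12.3 and at 4.12, 4.41 and 4.76 (log2 fold change 1.41, SE 0.32, adjusted p = 0.0074). For each of these 4 types, both foregut libraries lay above all 3 endoderm libraries. The types were called on the same libraries, so this is no further support. SVA_F separated as well, at 7.81 to 9.07 RPM in control foregut and 4.07 to 5.29 in control endoderm. SVA_F had a log2 difference of 0.81 (adjusted p = 0.092) and SVA_B of -0.19 (adjusted p = 0.69).

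The median log2 fold change over all subfamilies outside exons was 0.78, while TE reads in total were 1.75% and 1.29% of gene reads in control foregut and 1.496%, 1.33% and 1.21% in control endoderm, so the totals overlapped. Scaled to TE reads instead, this median was -0.01, and SVA_C (1.27), SVA_D (1.08) and SVA_E (1.53) were still called higher. SVA_A was then not called (0.65, adjusted p = 0.12) and SVA_B was called lower (-0.95, adjusted p = 0.018). Of the subfamilies called, 238 were higher and 59 lower by gene reads, and 136 and 120 by TE reads. Without FG_ctl 1 they were 270 and 147, without FG_ctl 2 they were 433 and 125, and without DE_ctl 3 they were 137 and 32. L1HS, the active LINE-1 whose machinery copies SVAs, was also higher outside exons, at 14.4 ± 1.58 RPM (SD, n = 2) in control foregut and 5.31 ± 1.54 (SD, n = 3) in control endoderm.

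Overlapping exons, SVA_B, SVA_C and SVA_D were higher and SVA_F lower in control foregut, where 18.5% of subfamilies were called. SVA_B was at 13.5 and 8.56 RPM in control foregut and 2.29, 2.88 and 2.87 in control endoderm (log2 fold change 2.06, SE 0.33, adjusted p = 0.0034). Nearly all of it was the copy at chr19:21625784-21627216, antisense to ENSG00000269237. It overlapped an annotated exon but no protein-coding exon. This copy was at 13.4 and 7.97 RPM in control foregut, 10.6 and 10.6 in CRISPRi foregut, and 0.763, 1.44 and 1.47 in control endoderm. SVA_C in an exon of TRIM56, an E3 ubiquitin ligase gene (chr7:100735044-100736635, sense), had 220 and 114 reads in control foregut and 22, 46 and 29 in control endoderm. The SVA_F fall followed the copy in PPP1R3B-DT described above.

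Among single integrants, 18 of 226 tested (7.96%) were called higher in control foregut and 3 (1.33%) lower, where 3.72% and 1.55% of all 44916 integrants were called. DESeq2 called none of the SVA integrants, and of all 44916 it called 0 higher and 9 lower. Without FG_ctl 1, 56 were higher (30.8%) and 9 lower, where 29.6% of all integrants were called higher, and without FG_ctl 2, 71 were higher (40.8%) and 11 lower, where 42.3% of all were. With a replicate block 2 were higher and 2 lower, where 0.396% and 0.697% of all integrants were. Without DE_ctl 1, 2 or 3, 9, 9 and 8 SVA integrants were called higher, where 2.20%, 1.93% and 1.90% of all were. The 18 were 8 SVA_D, 3 SVA_E, 2 each of SVA_A, SVA_B and SVA_F, and 1 SVA_C. Of these, 11 had reads in all 4 foregut libraries, 4 in 3 and 3 in 2. In all 6 endoderm libraries 7 of them had no read, and 5 of those had none in hESC either. Among all SVA integrants tested, 60.2% were at 0 in 1 of the groups, compared with 77.8% of all integrants.

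Several copies were read in foregut in every replicate. SVA_D near DNAJB13 (chr11:73646671-73648711, between genes) had 94 and 46 reads in control foregut and 181 and 116 in CRISPRi foregut, and 0 in all 8 other libraries, at least 38.5-fold higher in control foregut than in control endoderm. SVA_D in MAP3K19, a kinase gene (chr2:135790186-135792427, sense intronic), had 26 and 171 reads in control foregut, 150 and 61 in CRISPRi foregut and 0 in the other 8, at least 54.2-fold higher. Its host gene MAP3K19 was higher too, at 6.38 on the log2 scale (SE 1.10, adjusted p = 0.0022). SVA_D in SUCO (chr1:172540263-172541856, sense intronic) had 123 and 146 reads in control foregut and 4, 2 and 4 in control endoderm (log2 fold change 4.40, SE 0.79, adjusted p = 2.1e-06). The SUCO gene was lower, by -1.18 on the log2 scale.

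Other copies rose while their host gene did not. SVA_A in CTSV, a lysosomal protease gene (chr9:99892020-99893571, sense intronic), had 48 and 34 reads in control foregut, 80 and 35 in CRISPRi foregut and 1, 2 and 1 in control endoderm (log2 fold change 4.05, SE 1.31, adjusted p = 0.039), and the CTSV gene had a log2 difference of -0.43. SVA_D in MARCHF8 (chr10:46006864-46008688, antisense intronic) had 150 and 101 reads in control foregut and 1, 0 and 0 in control endoderm (log2 fold change 7.40, SE 1.0, adjusted p = 2.8e-11), while the gene was lower (-1.17). SVA_E in SPATA6 (chr1:48847377-48849997, sense intronic) had 139 and 82 reads in control foregut, 329 and 130 in CRISPRi foregut and 6, 8 and 2 in control endoderm (log2 fold change 3.60, SE 0.79, adjusted p = 0.00022). The SPATA6 gene had a log2 difference of -0.26 and was not called. Some calls rested on 1 foregut replicate. SVA_A in MCUB (chr4:110598986-110600803, antisense intronic) had 50 and 0 reads in control foregut and 23 and 0 in CRISPRi foregut, and SVA_D in PLEKHA5 (chr12:19493244-19493899, sense intronic) had 54 and 0, and 19 and 0. SVA_C in RAB3GAP1 (chr2:135862773-135864343, sense intronic) had 79 and 55 reads in control foregut and 4, 2 and 0 in control endoderm (log2 fold change 4.25, SE 1.02, adjusted p = 0.0011), while the gene was lower (-1.02). TE integrants within 5 kb were also read at some of the sites above. At RAB3GAP1 they held 192 and 130 reads in control foregut and 1, 3 and 3 in control endoderm. At SPATA6 these were 182 and 80, and 42, 23 and 20, and at DNAJB13 193 and 101, and 0, 2 and 0. At CTSV they were 131 and 3, and 5, 4 and 4. At SUCO and MAP3K19 they were 0 in both groups. Whether these reads and the SVA reads belong together was not tested. Over the sense intronic SVAs the Spearman rho between SVA and host gene log2 fold changes was 0.20 (n = 66), and over antisense ones -0.28 (n = 48).

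The 3 integrants called lower in foregut were read in endoderm and at 0 in control foregut. They were the SVA_B near ZNF730, SVA_D in RFTN2 and SVA_F in an intron of SH3D19 (chr4:152175496-152177165, sense). The last had 16 and 24 reads in hESC, 21, 47 and 38 in control endoderm, 25, 53 and 17 in CRISPRi endoderm, 0 and 0 in control foregut and 0 and 2 in CRISPRi foregut. By the floor for a count of 0, this SVA_F was at least 42.8-fold lower in control foregut than in control endoderm. That floor covers counting error only and not the zeros between foregut replicates. The SH3D19 gene was lower by -1.01 on the log2 scale. The RFTN2 gene went the other way from its SVA_D, with a log2 fold change of 1.33 in control foregut against control endoderm. From hESC to control endoderm, where its SVA_D rose, the RFTN2 gene was also higher (1.53).

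Possible regulators of SVAs were followed by a list of 27 genes. It held KZFPs that bind SVAs, genes of silencing and DNA methylation, and factors known to bind or activate SVA or LTR5_Hs. Of the 27, 25 were tested between hESC and control endoderm. There 4 were higher and 3 lower, where 26% of all genes were called. ZNF611, a KZFP that binds SVAs, was higher in control endoderm (log2 fold change 1.93), as were TET2 (1.39), KLF5 (4.66) and TFAP2C (1.64). DNMT3B, a de novo DNA methyltransferase, was lower (-2.45), as were KLF4 (-1.67) and MORC2 (-1.03), which works with the HUSH silencing complex. ZNF91, which binds SVAs in pluripotent cells, had a log2 difference of -0.58 (adjusted p = 0.079) and was not called.

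In control foregut against control endoderm, 1 regulator was higher (KLF5, 1.12) and 8 were lower, where 29% of genes were called. ZNF611 was at 1.75 and 0.97 RPM in control foregut and 16.2, 11.6 and 11.7 in control endoderm (log2 fold change -3.25, adjusted p = 0.00045). DNMT3B was at 19.3 and 19.5 and at 187.2, 257.1 and 188.6. The other 6 were DNMT1 (-1.33), the demethylase TET1 (-2.98), ATF7IP (-1.13), a partner of SETDB1, SP1 (-1.02), TFAP2C (-5.31) and POU5F1 (-7.73). ZNF91 (-0.08) and TRIM28 (-0.15) were not called. With the sgRNA no regulator was called in endoderm or in foregut, where 0.0343% and 0.165% of genes were called. ZNF611 was at 1.92, 6.93 and 8.72 RPM in CRISPRi endoderm, below all 3 control endoderm libraries (log2 difference -1.18, SE 0.38, adjusted p = 0.61). In foregut it was at 0 and 0 RPM with the sgRNA. The part of any of these genes in SVA levels was not tested.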

How the data were processed

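Bulk RNA-seq of 12 libraries was used, and the gastruloid data were not used here. The authors aligned reads to hg19 with HISAT2 and counted unique reads over genes and TE integrants with featureCounts. The deposited values are raw counts. Integrants overlapping an exon of GENCODE v44 lifted to GRCh37 were kept apart here. Counts per type or integrant with at least 3 reads in 1 library were tested in edgeR 4.0.16 (R 4.3.3, quasi-likelihood F test, 2-sided) with gene library sizes and TMM factors. Benjamini-Hochberg adjustment ran over all features. Types were called at an adjusted p under 0.05, and integrants and genes also needed a fold change over 2. Alternatives used limma 3.58.1, DESeq2 1.42.0, other scalings and filters, a replicate block and leaving out each library. The edgeR test was checked on simulated counts for hESC against control endoderm only. Changes were put into well-read features only, so foregut and integrants of few reads were not covered. Overlaps used bedtools 2.31.1 and sequences pysam 0.24.0. Named integrants were the 2 highest outside exons and the highest overlapping an exon of each type, and every one called. The members and gene lists were chosen with earlier results of these data known. UHRF1 was not matched to the gene table. Some items are not reported here. Counting error alone bounds the floor of 3 reads.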

Additional observations from a re-analysis of the deposited data

How the results depend on the processing

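With all integrants, where 112 of 1065 subfamilies were called higher and 84 lower, the number of SVA types called between hESC and endoderm (1, SVA_B) fell to 0. It was also 0 with all 12 libraries in one fit, and was 3 for integrants overlapping exons. Leaving out 1 library gave 0 to 1, with 0 without hESC 1 and without DE_ctl 3. SVA_B reversed to -0.87 over exons and to -0.19 without its copy near ZNF730, an alternative chosen after seeing the data. Between control foregut and control endoderm, values over exons reversed for SVA_A (-0.50), SVA_B (2.06), SVA_E (-0.28) and SVA_F (-1.93). The cause was not tested. SVA integrants called higher and lower in endoderm were 3 and 5, and became 7 and 10 with at least 10 reads in total (10.9% and 15.6%, against 16.4% and 11.9% of all integrants) and 1 and 0 with all 12 libraries in one fit (0.231% and 0.0185% of all). limma voom called 1 higher and 4 lower (2.92%), where it called 1.65% and 0.566% of all. The 18 integrants called higher in control foregut were 0 by DESeq2, 7 with no filter, 6 with all 12 libraries in one fit and 2 with a replicate block, where 0%, 0.665%, 0.735% and 0.396% of all integrants were called higher. Leaving out 1 library gave 8 to 71 higher and 2 to 11 lower. Of all integrants, 29.6% were called higher without FG_ctl 1 (56 SVA, 30.8%; 9 lower) and 42.3% without FG_ctl 2 (71 SVA, 40.8%; 11 lower). Without DE_ctl 1, 2 or 3 there were 9, 9 and 8 SVA higher, where 2.20%, 1.93% and 1.90% of all integrants were. Those called lower were 0 by DESeq2 and 5 by limma voom (2.21%), where 0.0200% and 2.14% of all integrants were. For the sgRNA in foregut limma voom called 1 integrant higher and 1 lower.

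Same-numbered libraries did not share deviations in endoderm (correlations of -0.073, -0.068 and -0.018), so a paired fit rests on numbers alone. Between DE_ctl and FG_ctl the correlations were 0.217 and 0.178, from 2 shared numbers, and the replicate block called 2 SVA integrants higher and 2 lower there. The replicate block called 1 SVA type in foregut with the sgRNA (SVA_E, 1.30), against 0 without it, and 20 of all 999 subfamilies (18 higher, 2 lower). Same-numbered foregut libraries correlated at -0.285, and the crossed replicate block, chosen after seeing the data, called 0 types and 0 integrants. Without FG_CRISPRi 1 the interaction called 1 type (lower) and 132 of all 1056 subfamilies (115 lower), and the range over libraries left out was 0 to 1.

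The mean level of all SVAs outside exons was 39.7, 40.3, 40.4, 115.8 and 168.1 RPM without mitochondrial genes in hESC, DE_ctl, DE_CRISPRi, FG_ctl and FG_CRISPRi. Scaled to TE reads in place of gene reads it was 2016, 2645, 2522, 5865 and 6027. Outside protein-coding exons alone it was 40.8, 44.7, 45.2 and 108.9 in the first 4 groups. Of the other results, which are log2 fold changes of single types and the sgRNA match counts, 492 stayed the same, 5 became called and 6 lost the call. Where neither setting called a type, a change of sign was counted as the same. The 6 reversals are those given above. Depth limits integrants of a few reads, and the spread between foregut replicates limits all foregut values.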
